A study of Mus musculus with 9 samples.

Results

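The genes of antigen presentation were followed in the jejunum of 9 mice. Every probe row was taken whose gene symbol began with H2-, the prefix of the mouse major histocompatibility complex (MHC), or was B2m, Cd74, Ii, C2ta, Ciita, Tap1, Tap2, Tapbp, Cd1d1 or Fcgrt. This gave 47 of 33012 probes, for 42 of 15674 gene entries. A symbol cell that named several genes counted as 1 entry, 37 entries had 1 probe and 5 had 2. The entries comprised 23 class I heavy chains, 4 genes of the class I light chain and peptide loading, 9 class II genes and 6 others. No probe carried the symbols H2-K1, H2-L or H2-DMb1. Cd74, the invariant chain, and Ciita, the class II transactivator, stood in the files under their older names Ii and C2ta.

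RNA came from the jejunum of males of OF1, an outbred stock, at 7 weeks of age, with 1 animal to an array. Ancestors of the mice had received feed B, feed K or feed G, and the mice themselves belonged to generation F3 on the same feed. Mice 7, 8 and 10 ate feed B, mice 1, 3 and 4 feed K, and mice 4, 8 and 11 feed G. The composition behind each feed letter and the MHC haplotype of each mouse are not given in the sources used here, and the time of day of sampling was not randomized. The arrays were single-colour chemiluminescence arrays of 60-mer probes. The levels given are log2 of the quantile-normalised signal, and detection of a probe meant a signal at least 3 times its noise. Of 8 epithelial markers, 4 had a probe. Fabp2, Tacstd1 (Epcam) and Cdh1 were detected on all 9 arrays, and Akp3 (Alpi) on 0. The share of detected probes per array ranged from 33.7% to 43.6% on feed B, from 41.2% to 47.6% on feed K and from 46.4% to 48.1% on feed G. P-values measure the spread between these mice, and the small number of arrays limits their precision.

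MHC class I molecules are a heavy chain paired with beta-2 microglobulin (B2m). They present peptides that are cut by the proteasome, carried into the endoplasmic reticulum by the Tap1/Tap2 transporter and loaded with the help of tapasin (Tapbp). Class II molecules are pairs of an alpha and a beta chain that travel with the invariant chain and exchange its remnant for antigenic peptide with the help of H2-DM, which H2-O restrains. Class I is made by nearly all nucleated cells. Class II is a mark of dendritic cells, macrophages and B cells, and the epithelium of the small intestine is known to carry it as well. Interferon gamma induces both classes, through Ciita for class II.

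The class II chains and the invariant chain read highest on feed K. Of the 9652 genes detected on at least 3 arrays, limma's F test over the 3 feeds called 0 at an adjusted p below 0.05 (0% of the genes tested), although 518 (5.37%) had an unadjusted p below 0.05. Of the 31 antigen presentation entries tested, 9 (29.0%) were below 0.05 unadjusted, and none passed the adjustment. These 9 were H2-Aa, H2-Ab1, H2-Ea, H2-Eb1, Ii, Tap1, H2-Q2, H2-Q10 and the shared entry of H2-Q7 and H2-Q8. The count depended on the test and on single mice. An exact permutation test of the same statistic over all 280 splits of the mice gave 486 of 9556 genes (5.09%) and 1 antigen presentation entry, Tap1 (p = 0.0107), below 0.05. In that test the exact p was 0.05 for H2-Aa, 0.0536 for H2-Eb1 and 0.0571 for Ii. Without feed K mouse 3 the limma count was 1 of 31, and without feed K mouse 1 it was 5 of 31.

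H2-Aa encodes the alpha chain of the class II molecule A. It read 13.26, 12.00 and 12.97 in feed B mice 7, 8 and 10, 14.91, 16.21 and 14.55 in feed K mice 1, 3 and 4, and 14.09, 12.90 and 11.16 in feed G mice 4, 8 and 11. The 3 feed K mice lay above the 6 others, and the feed B and feed G mice overlapped. The means were 12.74 ± 0.66 on feed B, 15.22 ± 0.87 on feed K and 12.72 ± 1.48 on feed G (SD, n = 3 each). Feed K exceeded feed B by 2.48 on the log2 scale (SE 0.75, limma adjusted p = 0.773), a 5.59-fold difference, and the unadjusted F p was 0.0150. The highest and the lowest mouse differed 33.2-fold, while the spot stood at 33.4 to 138 times its noise on each array.

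H2-Ab1, the beta chain of the same molecule, followed. Its probe row also carries the symbol Rmcs1. It read 12.89, 11.33 and 11.96 on feed B, 14.23, 14.60 and 14.25 on feed K, and 13.61, 12.19 and 10.25 on feed G, in the same order of mice. All feed K mice again lay above all others, and feed G mouse 11 was the lowest of the 9. Feed K exceeded feed B by 2.30 (SE 0.77, limma adjusted p = 0.773).

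The invariant chain, which escorts newly made class II molecules, was listed as Ii. It read 14.81, 12.87 and 14.43 on feed B, 16.43, 16.73 and 15.96 on feed K, and 14.97, 14.29 and 12.21 on feed G. The feed K mice did not overlap with the rest, and feed B mouse 8 and feed G mouse 11 were the lowest. Feed K minus feed B was 2.34 (SE 0.74, limma adjusted p = 0.773), and feed G minus feed K was -2.55 (SE 0.74, limma adjusted p = 0.960).

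The E molecule moved in the same direction. H2-Eb1, its beta chain, read 14.34, 13.22 and 14.02 on feed B, 15.33, 15.56 and 14.57 on feed K, and 14.26, 14.03 and 12.67 on feed G, so that feed K again lay above all other mice. H2-Ea, its alpha chain, is a transcribed pseudogene in the RefSeq annotation of the C57BL/6J-based assembly, but was detected in all 9 OF1 mice. H2-Ea read 12.82, 10.18 and 12.75 on feed B, 14.32, 14.53 and 12.70 on feed K, and 11.49, 12.39 and 10.80 on feed G. Here feed K mouse 4 fell within the range of feed B. Feed K minus feed B was 1.29 (SE 0.49) for H2-Eb1 and 1.93 (SE 0.81) for H2-Ea, with limma adjusted p-values of 0.784 and 0.786. Without feed B mouse 8 the H2-Ea difference was 1.06.

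**Figure D1:**
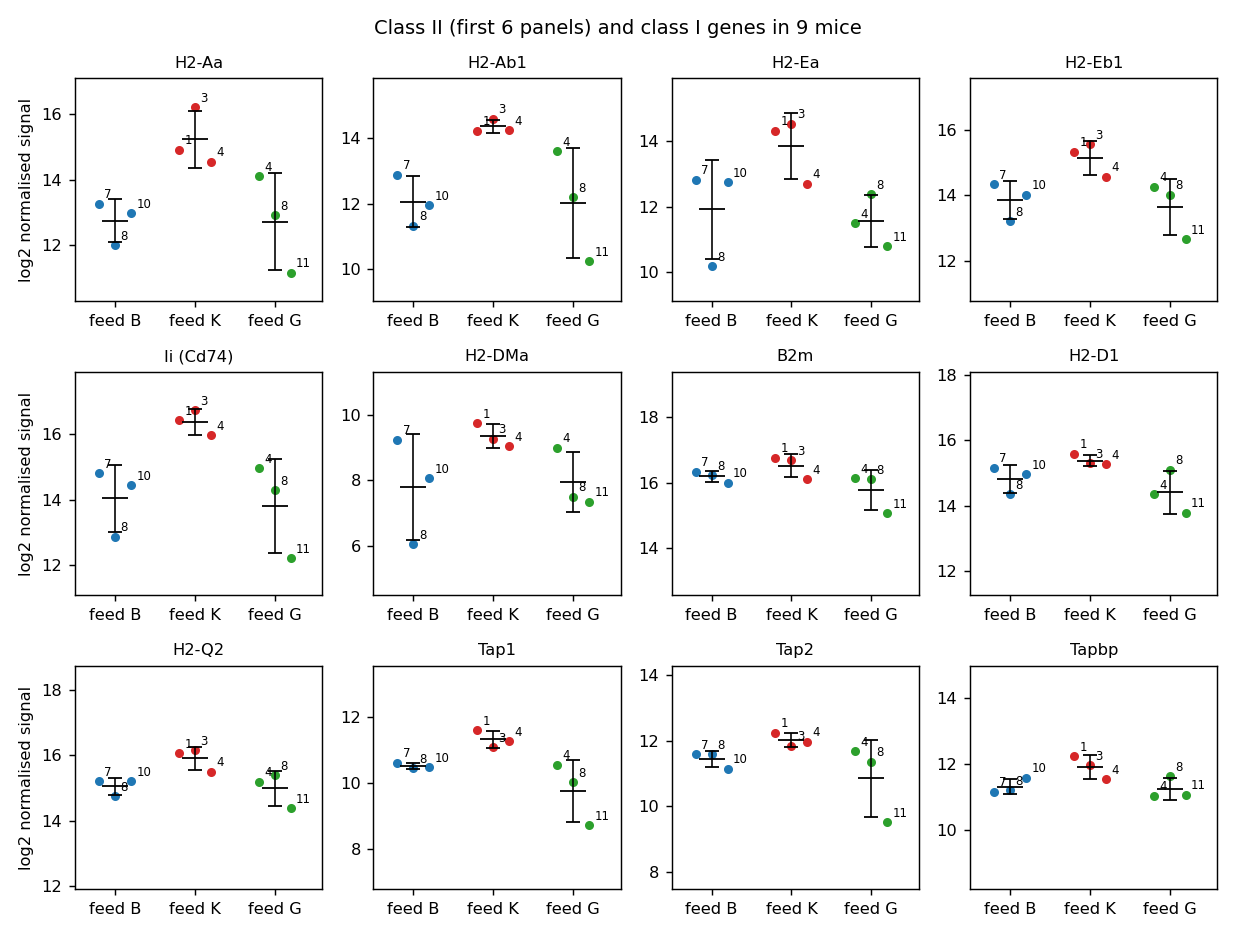
Log2 normalised signal of 12 genes in the 9 mice, by feed. Points are mice, labelled with the mouse number, and bars are the mean and SD of 3 mice; each panel spans the same number of log2 units. The feed K points lie above all others in H2-Aa, H2-Ab1, H2-Eb1, Ii, H2-D1, H2-Q2, Tap1 and Tap2, and mouse 11 of feed G is low in most panels.

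The class II genes are transcribed from promoters in which an X box and a Y box stand a fixed distance apart. Both boxes are bound by the complex that Ciita joins. Stretches of 60 bases upstream of the start are shown for the 5 class II genes with the box near the start, and for B2m. The table of RefSeq promoter windows (GRCm38.p6, 250 bases before to 50 after each start) held windows for 29 of the 42 entries. Capitals mark GATTGG, the core of the Y box, and AACNGATG, letters from the X box, where the window held them.
H2-Aa: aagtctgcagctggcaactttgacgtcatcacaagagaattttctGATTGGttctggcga
H2-Eb1: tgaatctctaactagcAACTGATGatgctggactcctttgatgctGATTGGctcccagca
H2-DMb2: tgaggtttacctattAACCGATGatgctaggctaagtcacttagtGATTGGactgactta
H2-Oa: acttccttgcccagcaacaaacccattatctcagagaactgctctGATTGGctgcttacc
H2-Ob: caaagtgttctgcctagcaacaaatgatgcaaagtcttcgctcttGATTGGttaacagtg
B2m: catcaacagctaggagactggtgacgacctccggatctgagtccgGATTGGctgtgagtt
These stretches are chr17:34287858-34287917 (minus strand) for H2-Aa, chr17:34305762-34305821 for H2-Eb1, chr17:34145113-34145172 for H2-DMb2, chr17:34092290-34092349 for H2-Oa, chr17:34238802-34238861 for H2-Ob and chr2:122147588-122147647 for B2m, the last 5 on the plus strand.

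Searched on both strands, GATTGG was in at least 1 window of all 6 class II genes that had one and of 15 of 21 class I genes with a window, compared with 16.1% of all 32851 windows. AACNGATG was in windows of 2 of the 6 class II genes, H2-Eb1 and H2-DMb2, compared with 2.32% of all windows. GAAANNGAA, letters of an interferon-stimulated response element, was in windows of 3 of the 21 class I genes, B2m, H2-T23 and H2-T22, and of 0 of the 6 class II genes, compared with 8.56% of all windows. The class II genes, B2m and H2-T22 held GATTGG on the gene's own strand, and the other class I genes with a match on the opposite strand. By window it was in 6 of 7 class II and 16 of 22 class I windows. These matches are letters only.

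Of the 4 peptide loading genes of class II, H2-DMa, H2-Oa and H2-Ob were not detected on every array, and the directions were mixed. H2-DMa, a chain of the DM molecule, was detected on 7 of 9 arrays. It read 9.24, 6.04 and 8.07 on feed B, 9.75, 9.26 and 9.04 on feed K, and 8.99, 7.49 and 7.34 on feed G, and feed K overlapped with feed B mouse 7. Feed K minus feed B was 1.56 (SE 0.78, limma adjusted p = 0.797). Without feed B mouse 8, whose spot stood at 2.49 times its noise, that difference was 0.71.

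H2-DMb2, a beta chain of DM, had 2 probes that disagreed. One was detected on all 9 arrays, at signal-to-noise ratios of 7.25 to 72.7, and read 9.49 on feed B, 11.78 on feed K and 9.95 on feed G (means, n = 3). On this probe the 3 feed K mice lay above all others, and feed K exceeded feed B by 2.29, with an unadjusted p of 0.00261 from limma fitted to each probe. The other was detected on 7 arrays, at ratios of 0.46 to 9.55, and read 7.67, 6.56 and 7.68, lowest on feed K. The average of both probes hid the contrast, with an F p of 0.454 unadjusted.

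H2-Oa and H2-Ob, the chains of the DM inhibitor H2-O, were detected on 5 and 3 arrays. H2-Ob was below detection on all 3 feed K arrays, and read 8.57, 7.65 and 9.61 on feed B, 6.20, 6.97 and 8.63 on feed K and 7.88, 9.45 and 8.81 on feed G. The spots of H2-Ob in feed K mice 1 and 3 and of H2-Oa in feed K mouse 1 and feed B mouse 8 were weaker than their own noise, so these readings have no order.

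C2ta, the transactivator that switches the class II genes on, was detected on 2 arrays and therefore not tested. Its signal-to-noise ratio was 0.1, -0.34 and 0.44 on feed B, 2.54, 14.27 and 2.53 on feed K, and 3.62, 2.09 and 0.89 on feed G. Its log2 signal was 6.96, 6.43 and 6.52 on feed B, 8.06, 8.57 and 8.02 on feed K, and 7.08, 6.43 and 5.54 on feed G. The feed K mice lay above all others, but 7 of the 9 readings were below the detection threshold, and those of the 3 feed B mice and feed G mouse 11 were weaker than their own noise and have no order.

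Of the 23 class I heavy chain entries, 13 were tested and 9 were detected on all arrays. Of the 13 tested, 12 read higher on feed K than on feed B, with a median difference of 0.76, compared with 0.05 over all genes tested, of which 5490 of 9652 (56.9%) read higher on feed K. The median over the 4 class II chains and Ii was 2.30. Heavy chain genes are close relatives of each other and a 60-mer can bind the transcripts of several, so a value may hold signal of more than 1 gene.

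H2-D1, a classical heavy chain that presents peptides to cytotoxic T cells, read 15.16, 14.36 and 14.97 on feed B, 15.59, 15.30 and 15.27 on feed K, and 14.36, 15.10 and 13.80 on feed G. The feed K mice lay above all others by a narrow margin. Feed G minus feed K was -0.96 (SE 0.35, unadjusted p = 0.0253, limma adjusted p = 0.960).

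H2-Q2, a nonclassical heavy chain, was the class I entry most like Ii over the mice. It read 15.20, 14.76 and 15.21 on feed B, 16.07, 16.15 and 15.50 on feed K, and 15.19, 15.38 and 14.38 on feed G, without overlap between feed K and the rest. Feed K minus feed B was 0.85 (SE 0.31, limma adjusted p = 0.784). H2-Q10, known as a secreted heavy chain of the liver, was detected on 8 arrays and read between 8.89 and 11.25, with the 3 feed K mice highest.

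H2-T23 encodes Qa-1, the nonclassical molecule that presents leader peptides of other class I chains to receptors of natural killer cells. It read 10.06, 8.77 and 9.76 on feed B, 10.48, 12.93 and 12.40 on feed K, and 12.40, 9.93 and 8.84 on feed G. Feed G mouse 4 was as high as feed K mouse 4, so that the feeds overlapped, and the range was 17.8-fold. Feed K minus feed B was 2.41 (SE 0.95, limma adjusted p = 0.786). H2-M3, which presents formylated peptides of bacteria and mitochondria, read between 11.19 and 12.54, and its feed K minus feed B difference was 0.76 (SE 0.29, limma adjusted p = 0.784).

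The shared entry of H2-Q7 and H2-Q8, genes of the Qa-2 molecules, averaged 2 probes of unequal quality. The probe detected on all 9 arrays had means of 16.80 on feed B, 17.53 on feed K and 16.93 on feed G. The probe detected on 5 arrays had means of 7.34, 9.34 and 7.71. The dim probe therefore contributed most of the 1.37 difference (SE 0.42) between feeds K and B. When spots weaker than their own noise were left out, the averaged difference was -0.11. That setting removed the dim probe only in feed B mouse 8 (signal-to-noise ratio 0.44). The value of that mouse was then the bright probe alone, so unlike probes were compared. On the bright probe feed K minus feed B was 0.74. With limma fitted to each probe, the unadjusted F p was 0.109 for the bright probe and 0.0423 for the dim probe.

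H2-D4 and H2-Bl, transcribed pseudogenes in RefSeq, were detected on all arrays, with feed K minus feed B differences of 0.76 (unadjusted p = 0.0313) and 0.77 (unadjusted p = 0.160). Without feed B mouse 7 the difference of H2-Bl was 0.47. The entry shared by H2-T10, H2-T17, H2-T22 and H2-T9 read between 9.19 and 10.92, with a feed G minus feed K difference of -0.86 (unadjusted p = 0.0348). H2-T3, the thymus leukaemia antigen of intestinal epithelium that binds CD8 alpha homodimers, was detected on all arrays and stood apart. It read 12.56, 13.30 and 12.25 on feed B, 12.93, 12.41 and 12.27 on feed K, and 12.85, 12.62 and 11.56 on feed G, and the feeds overlapped. Its feed K minus feed B difference was -0.16, with a 95% interval that reached from -1.09 to 0.77, and it was 0.14 without feed B mouse 8. H2-Q1, H2-Q5 and H2-M2 overlapped between feeds, with unadjusted F p-values of 0.325, 0.204 and 0.815.

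Of the 11 H2-M genes, 9 were detected on fewer than 3 arrays. They included all of the H2-M10 genes, which are known from vomeronasal neurons of the nose. Of all 42 entries, 22 were detected on all 9 arrays, 4 on 1 or 2 arrays and 7 on no array.

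B2m, the light chain shared by all class I molecules, read 16.33, 16.24 and 16.001 on feed B, 16.76, 16.68 and 16.11 on feed K, and 16.14, 16.10 and 15.07 on feed G. Feeds B and K overlapped, and feed G mouse 11 lay far below the rest. Feed G minus feed K was -0.75 (SE 0.33, unadjusted p = 0.0515), and -0.40 without feed G mouse 11. The whole range was 3.23-fold, compared with 22.97-fold for Ii.

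Tap1, a chain of the peptide transporter, read 10.62, 10.46 and 10.49 on feed B, 11.62, 11.09 and 11.28 on feed K, and 10.55, 10.03 and 8.72 on feed G. The feed K mice lay above all others, and the 3 feed B mice had an SD of 0.083. Feed G minus feed K was -1.56 (SE 0.42, limma adjusted p = 0.960), and the unadjusted F p was 0.0180. Without feed G mouse 11 that difference was -1.03. Tap2, the partner of Tap1, read between 11.86 and 12.25 on feed K, between 11.15 and 11.59 on feed B, and 11.68, 11.36 and 9.51 on feed G. Tapbp, which bridges the transporter and the empty class I molecule, read between 11.04 and 12.24 with a feed G minus feed K difference of -0.67 (unadjusted p = 0.0344).

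Over the pairs of feeds the entries leaned one way. Comparing feed K with feed B, 26 of 31 entries read higher on feed K, as did 56.9% of all genes tested, and 10 of them had an unadjusted p below 0.05, compared with 4.34% of all genes tested that were higher on K at that threshold. Comparing feed G with feed K, 27 of 31 read lower on feed G, as did 50.9% of all genes tested, and 14 of them had an unadjusted p below 0.05, compared with 2.39% of all genes that were lower on G. Both comparisons share the feed K arrays. Between feeds G and B, 0 of 31 entries had an unadjusted p below 0.05, compared with 5.74% of all genes, and 15 read higher and 16 lower. None of the 3 pairs gave an adjusted p below 0.05 for any gene (0% each). The unadjusted counts over all genes were 609 for K against B, 554 for G against B and 438 for G against K. All 3 feed K mice lay above the 6 others for 9 of the 30 entries with 9 values, compared with 1.83% of 9556 genes.

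These counts changed when single mice were left out, and such fits also have fewer mice. Without feed K mouse 3, the count for K against B was 4 instead of 10, compared with 3.59% of all genes higher on K. The median difference of the class II chains and Ii was then 1.99 instead of 2.30. Without feed G mouse 11, the count for G against K was 6 instead of 14, compared with 2.04% of all genes lower on G. The median difference of the class II chains and Ii was then -1.72 instead of -2.34. Feed B mice 7 and 8 had the arrays with the lowest share of detected probes. Without both, only mouse 10 was left on feed B, and the median K minus B difference of the class II chains and Ii was 1.93.

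**Figure D2:**
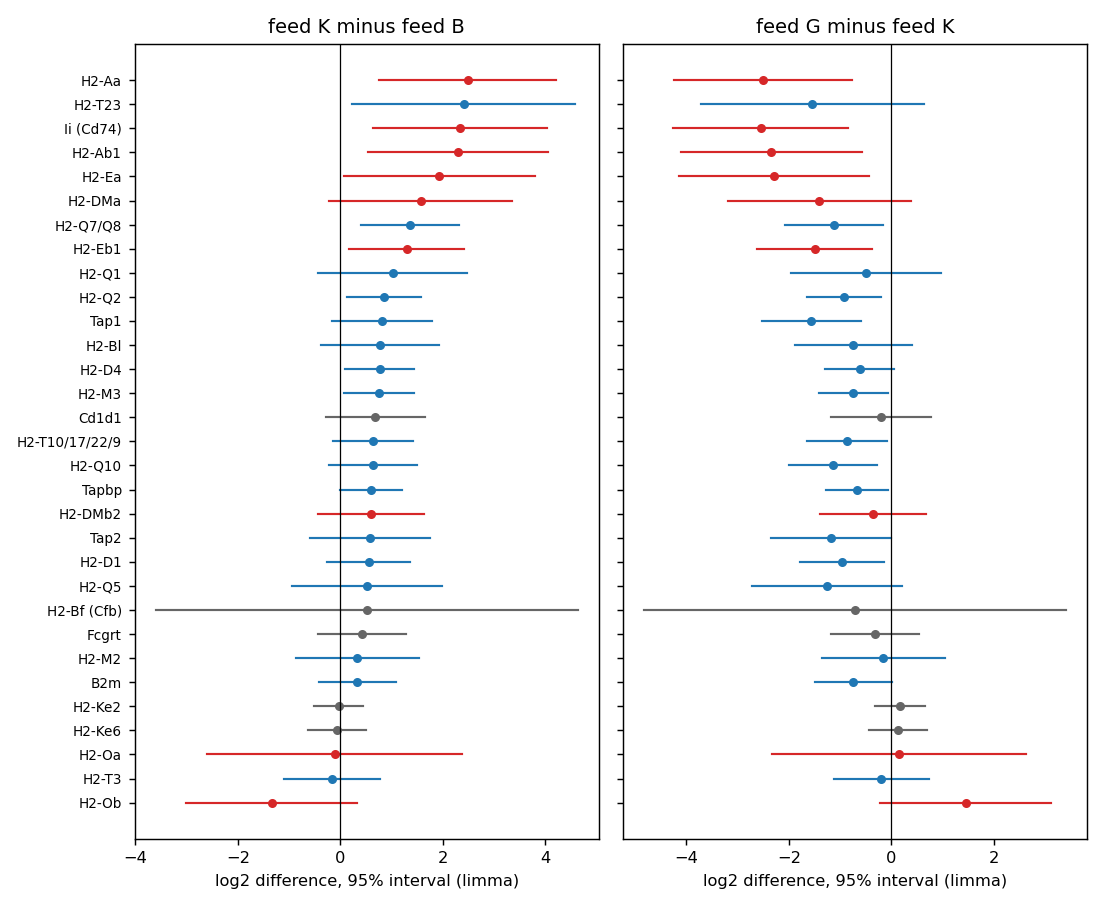
Differences in log2 signal between feeds for the 31 antigen presentation entries tested, with 95% intervals from limma, not adjusted for the number of genes. Class II genes are red, class I heavy chains, B2m and loading genes blue and others grey. Of the 31, 26 lie to the right of 0 in the left panel and 27 to the left of 0 in the right panel.

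Among the MHC-like molecules and the neighbours in the region the feeds overlapped. Cd1d1, which presents lipids to natural killer T cells, was detected on 7 arrays and read between 7.26 and 8.98. Fcgrt, the neonatal Fc receptor that carries IgG across the epithelium, read 9.92, 11.24 and 10.34 on feed B, 10.99, 10.81 and 10.94 on feed K, and 10.63, 10.07 and 11.09 on feed G. Its feeds overlapped, with an unadjusted F p of 0.535.

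Genes named after the H2 region that do not present antigen marked both ends of the spread. H2-Ke2 and H2-Ke6 had the smallest SD of the entries tested, 0.20 and 0.25 over the 9 mice. H2-Bf, complement factor B, had the largest, 2.25. It was detected on 6 of 9 arrays, and its spots in feed B mouse 7 and feed K mouse 1 were weaker than their own noise, so that the SD is set partly by readings that have no order. It read 8.65, 12.35 and 8.88 on feed B, 7.495, 12.00 and 11.93 on feed K, and 13.19, 8.22 and 7.89 on feed G. The feeds overlapped.

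Class II was less uniform than class I over the mice. The median SD of the 9 class II entries tested was 1.33 on the log2 scale, compared with 0.58 for the 13 class I heavy chains and 0.42 for all genes tested. Within feeds the medians were 1.06, 0.54 and 0.41. The class II median of 1.33 is the SD of H2-Oa, which was detected on 5 arrays and has readings weaker than their own noise. Over the 4 class II chains and Ii, which were detected on all arrays, the median SD was 1.49. These medians are descriptions with no test. Among the 5887 genes detected on all arrays, H2-Aa, Ii, H2-Ab1 and H2-Ea exceeded the SD of 99.7%, 99.6%, 99.6% and 99.6% of genes, and H2-Eb1 that of 97.4%. H2-T23 was the exception among class I, with an SD of 1.57 that exceeded 99.7% of genes. Tapbp had the smallest SD among the class I and loading genes, 0.42.

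**Figure D3:**
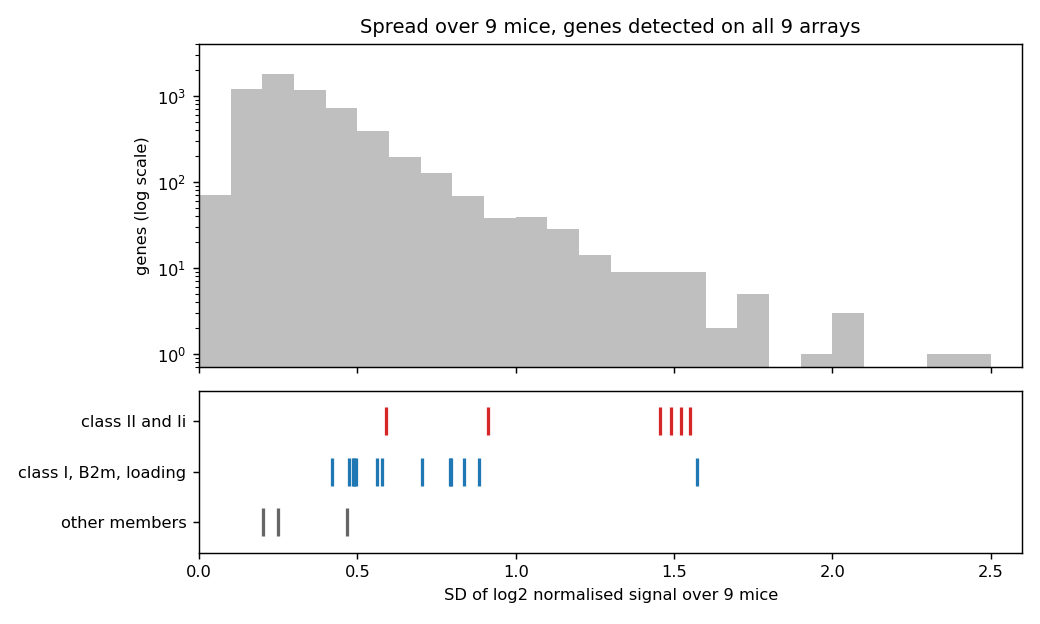
SD of log2 normalised signal over the 9 mice. The upper panel counts the 5887 genes detected on all 9 arrays on a log scale, and the lower panel marks the 22 antigen presentation entries among them. The class II marks of H2-Aa, H2-Ab1, H2-Ea and Ii lie near 1.5, and all but 1 of the class I and loading marks lie below 0.9.

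The mice at both ends of the range were the same in both classes. Deviations from each gene's own mean were averaged over the 4 class II chains and Ii. They were 0.07, -1.64 and -0.33 in feed B mice 7, 8 and 10, 1.49, 1.97 and 0.85 in feed K mice 1, 3 and 4, and 0.13, -0.40 and -2.14 in feed G mice 4, 8 and 11. For the 13 heavy chains they were -0.21, -0.40 and -0.16, then 0.47, 0.74 and 0.45, and then 0.08, -0.12 and -0.81. In both groups feed K mouse 3 was highest and feed G mouse 11 lowest. Over all genes tested the deviations stayed between -0.14 and 0.06.

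**Figure D4:**
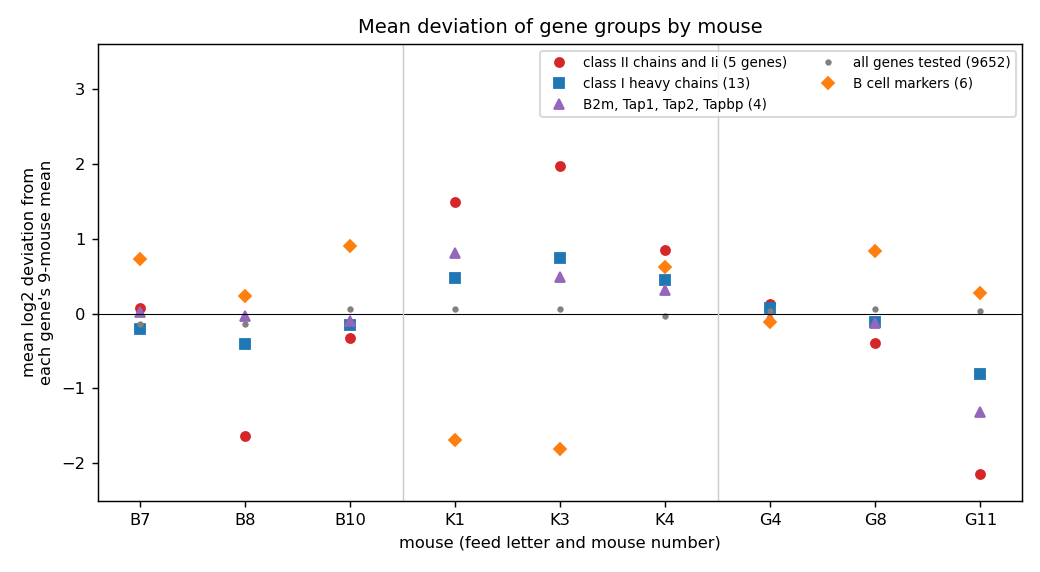
Mean log2 deviation from each gene's 9-mouse mean, by mouse, for the class II chains and Ii, the class I heavy chains, B2m with the loading genes, the B cell markers and all genes tested. The class II symbols span -2.14 to 1.97, the heavy chain symbols -0.81 to 0.74, and the B cell markers lie lowest in feed K mice 1 and 3.

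Members of one class followed each other from mouse to mouse. Over the 9 mice Ii had a Pearson r of 0.972 with H2-Aa (exact permutation p = 2.76e-06, adjusted over 7 relations 1.93e-05; Spearman rho 1), 0.974 with H2-Ab1 (rho 0.967), 0.984 with H2-Eb1 (rho 0.967) and 0.856 with H2-DMa (rho 0.917, exact permutation p = 0.00252). Without feed B mouse 8 and feed G mouse 11, the mice farthest from the median of Ii, r was 0.955, 0.939, 0.956 and 0.770. With the feed means subtracted r was 0.925, 0.935, 0.963 and 0.782, so that the relation also held within feeds.

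For class I the relations rested on few mice. B2m had an r of 0.798 with H2-D1 (rho 0.683, exact permutation p = 0.00873), 0.899 with Tap1 (rho 0.733, exact permutation p = 0.00512) and 0.656 with Tapbp (rho 0.417, exact permutation p = 0.05005). Without feed K mouse 1 and feed G mouse 11, r was 0.298, 0.424 and 0.389, with exact permutation p-values of 0.566, 0.345 and 0.408, and these relations no longer held. With the feed means subtracted r was 0.626, 0.827 and 0.438.

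Ranked by Pearson r with Ii over the 9 mice among 5886 other genes detected on all arrays, H2-Eb1 (0.984), H2-Ab1 (0.974), H2-Aa (0.972), H2-Q2 (0.954) and Oas1c (0.949) came first. Oas1c belongs to the oligoadenylate synthetase family. The median r over the ranked genes was 0.02. Of the first 20, 8 were antigen presentation entries, compared with 21 of all 5886 ranked genes. Ubd, a ubiquitin-like modifier, was at rank 8 (r = 0.929). It read 11.11, 9.88 and 9.96 on feed B, 13.75, 14.57 and 12.90 on feed K, and 11.08, 12.20 and 8.20 on feed G, so that feed K lay above the rest. Ubd was picked from this ranking, and Ii itself read highest on feed K, so this order is not separate evidence.

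Other genes of the pathway were taken from a list of 26, of which 22 had a probe and 20 were tested. None passed the adjusted F test, and Psmb9, Irf1 and Cd1d2 had an unadjusted F p below 0.05, compared with 5.37% of all genes. For feed G against feed K, 18 of 20 read lower on feed G, 7 of them with an unadjusted p below 0.05, compared with 50.9% and 2.39% of all genes, and the median difference was -0.33, compared with -0.01 over all genes tested. Without feed G mouse 11 or without feed K mouse 1 the count was 3 instead of 7, and without feed G mouse 8 it was 4. For feed K against feed B, 14 of 20 read higher and 0 had an unadjusted p below 0.05. Of all genes tested, 56.9% read higher on feed K and 4.34% did so with an unadjusted p below 0.05.

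Psmb9, a catalytic subunit of the immunoproteasome, read 13.63, 12.99 and 12.74 on feed B, 14.62, 13.94 and 14.29 on feed K, and 13.47, 12.82 and 11.33 on feed G. The feed K mice lay above all others. Feed G minus feed K was -1.74 (SE 0.52, unadjusted p = 0.00948), and -1.13 without feed G mouse 11. Psmb8, another such subunit, read between 13.35 and 14.02 on feed K, between 12.51 and 13.13 on feed B, and 12.93, 12.54 and 10.23 on feed G. Irf1, the interferon-regulated transcription factor, read between 13.33 and 13.73 on feed K, between 13.07 and 13.16 on feed B and between 12.53 and 12.84 on feed G, with no overlap between any of the feeds and an unadjusted F p of 0.0112.

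The chaperones Calr and Canx, which fold class I chains, had feed K minus feed B differences of 0.03 and 0.08. Ctss, the protease that trims the invariant chain, read between 13.94 and 14.34 in all mice, and Ifi30, the lysosomal thiol reductase, between 14.23 and 14.94.

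Markers of cell types that carry class II were set beside these values. In bulk tissue, fewer cells of a type and less RNA per cell cannot be told apart. Of 8 B cell markers, 6 were tested, and all 6 read lower on feed K than on feed B, with a median difference of -1.50. The unadjusted p was below 0.05 for 2 of the 6. Of all genes tested, 43.1% read lower on feed K and 1.97% did so with an unadjusted p below 0.05. Cd79a, a signalling chain of the B cell receptor, read 10.64, 10.16 and 10.60 on feed B, 7.54, 8.02 and 10.69 on feed K, and 9.27, 10.82 and 10.01 on feed G. Feed K mice 1 and 3 were the lowest for Cd79a and the highest for Ii. The summed linear signal of the 6 markers was 3314 to 5599 on feed B, 765 to 5337 on feed K and 2422 to 5400 on feed G.

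Of 9 dendritic cell and macrophage markers, 7 were tested. Itgax (CD11c) was detected on 0 arrays and Flt3 on 1. All 7 read lower on feed K than on feed B, with a median difference of -0.23, and none had an unadjusted p below 0.05 for that pair. Their summed linear signal, of which Lyzs (lysozyme) made up most, was 216570 to 282977 on feed B, 154900 to 246159 on feed K and 55724 to 329474 on feed G. The sum was lowest in feed G mouse 11, which had the lowest class II levels, next lowest in feed K mouse 3, which had the highest, and highest in feed G mouse 8. This order was that of Lyzs, which read 15.63, 17.20 and 18.31 in these mice, so the sum does not describe the other markers. In feed G mouse 11, Cd14 lay at the top of its range (10.29) and Tyrobp at the bottom (9.38).

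Of 8 T cell markers, 6 had a probe and 5 were tested, with a summed linear signal of 904 to 2160 on feed B, 1071 to 4531 on feed K and 1094 to 2915 on feed G. Cd3g, a chain of the T cell receptor complex, was highest in feed K mouse 3, at 11.38. The 3 epithelial markers tested had a median feed K minus feed B difference of 0.01, and their sum was highest in feed G mouse 11 (2048537, compared with 1206564 to 1878321 in the other mice). The 3 plasma cell markers tested differed by a median of -0.03 between feeds K and B. Of the 3 pancreatic markers, Prss2 and Pnlip were detected on 0 arrays. The third, Ela1 (Cela1), was detected on all 9. It read 9.70 in feed G mouse 11, compared with 8.55 to 9.03 in the other mice. The part of any cell type in the class II values was not tested.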

How the data were processed

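Jejunal RNA of 9 mice was hybridised to 1 array each. The authors deposited, per array, the signal intensity of each spot after background correction and spatial normalization, with its standard deviation, quality flag and signal-to-noise ratio score. The deposited series table equals the assay-normalized signal of the arrays (297108 of 297108 values). The submitters' processing notes name RMA without a version or role. Image software versions and the design of the probes are not given in the sources used here.

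A flag above 5000 excluded a spot. The signals of the rest were quantile normalised over the 9 arrays (arithmetic mean), log2 transformed and averaged over probes with the same symbol cell. A spot with a signal-to-noise ratio below 1 holds its standard deviation in place of a signal (119010 of 119010 such spots), so low values have no order. Genes detected on at least 3 arrays were fitted with limma 3.58.1 in R 4.3.3 (F test over the feeds and 3 pairs, Benjamini-Hochberg adjustment at 0.05). Exact permutation tests, two-sided for correlations, were run with scipy 1.17.1, pandas 2.3.3 and numpy 2.4.6 under Python 3.11.15. On simulated data with 200 changed genes among 9556, feed G against feed B, 0, 127 and 164 were recovered at log2 changes of 1, 2 and 3. Gene names were updated through RefSeq accessions for 32 of 42 entries. Mouse numbers do not pair mice across feeds.

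The genes named are the chains and loading genes of both classes, entries with an unadjusted p below 0.05, the 3 entries with the largest and the smallest SD, and the 5 genes most like Ii. Ubd and other genes of the pathway and marker lists were chosen for naming after their values were seen. The members and lists were chosen with earlier results of these data known. Alternatives were the series table, median scaling, single probes, the brightest probe, failed spots kept, a floor at percentile 5, other detection filters, an exact test and leaving out each mouse. Leaving out dim spots, and leaving out feed B mice 7 and 8 together, were chosen after seeing the data.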

Additional observations from a re-analysis of the deposited data

Results flagged for a closer look

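With 3 mice per feed, single mice were examined over all 9 mice. In 3 of the 31 entries tested, the gap between an extreme mouse and its nearest neighbour, as a share of the range, exceeded Dixon's 95% limit (0.493 for 9 mice). Chance gives about 1 in 20. Feed G mouse 11 was low for B2m (share 0.552) and Tap2 (share 0.598), and feed B mouse 8 was low for H2-M2 (share 0.624, over 8 mice). H2-M2 was detected on 5 arrays, and its spot in feed B mouse 8 had a signal-to-noise ratio of -0.07. That reading was weaker than its own noise and has no order.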

How the results depend on the processing

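No antigen presentation entry passed an adjusted p of 0.05 in the F test, K against B or G against K under any alternative run. Over all genes, the F test called 1 gene when detection on all 9 arrays was required and 3 with dim spots left out, and 0 to 3 when 1 mouse was left out. The same 2 filters gave 1 and 3 genes for G against B, dim spots left out gave 3 for G against K, and leaving out 1 mouse gave 0 to 3 genes for G against B and 0 to 10 for K against B.

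Of the entries, 9 had an unadjusted F p below 0.05, compared with 5.37% of all genes. The count was 1 by the exact permutation test, compared with 5.09% of all genes. When 1 mouse was left out it was 1 to 12, while the share of all genes was 3.98% to 10.2%. Counts for K against B are of entries higher on K, and those for G against K of entries lower on G. Counts for G against B are in either direction. For K against B (10 entries) the count was 16 with median scaling, and 4 to 12 when 1 mouse was left out. It was 4 without feed K mouse 3 or feed B mouse 8, and 6 without feed K mouse 1. Of all genes, 4.34% were higher on K with an unadjusted p below 0.05 in the main fit, and 12.2% with median scaling. With 1 mouse left out that share was 2.59% to 9.05%, highest without feed B mouse 10. For G against K (14) the count was 8 with the series table, 7 with median scaling and 9 with dim spots left out. It was 6 to 15 when 1 mouse was left out (6 without feed G mouse 11 or feed K mouse 3, 9 without feed K mouse 1). Of all genes, 2.39% were lower on G at that threshold in the main fit. That share was 1.55%, 1.27% and 1.58% in these 3 settings, and 1.19% to 2.93% with 1 mouse left out. For G against B (0) the count of entries was 2 with no filter on detection, and 0 to 2 when 1 mouse was left out. With median scaling the median K minus B difference over all genes was 0.41, compared with 0.05 in the main fit. The median for the class II chains and Ii was then 2.70. The average of H2-Q7 with H2-Q8 changed for K against B to -0.11 with dim spots left out. Feed B mouse 8 then kept only the bright probe, so this value compares unlike probes. The median SD stayed between 0.55 and 0.67 for class I and between 1.13 and 1.47 for class II. The relation of B2m with Tapbp passed the threshold with the series table (r = 0.738), with median scaling (0.771) and without feed B mice 7 and 8 (0.804), and its r ranged from 0.526 to 0.737 when 1 mouse was left out. That of B2m with H2-D1 ranged from 0.544 to 0.871 and with Tap1 from 0.680 to 0.968, both lowest and no longer significant without feed G mouse 11. The causes of these changes were not tested.

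No paired analysis was possible because the feeds share fewer than 2 mouse numbers each, and these do not mark shared animals. Slide, hybridization or scan as a block was not run, since every array has its own barcode and all share 1 folder name. Genes detected on few arrays are limited by signal over background.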
